A study of Mus musculus with 3 samples.

Results

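Zfp36, Zfp36l1, Zfp36l2, Zc3h12a, Zc3h12d and Rc3h1 encode RNA-binding proteins that shorten the life of messenger RNAs, and their transcripts were followed in regulatory T cells (Tregs) of 3 mouse tissues. They were taken by symbol from the table of 27998 genes shared by the 3 libraries, in which all 6 were found. The libraries hold Tregs of adult mice of the reporter strain FOXP3-EGFP (C.Cg-Foxp3tm2Tch/J), in which a green fluorescent protein marks Foxp3-expressing cells, with 1 library each from epidermis, dermis and lymph node and no treatment named. Skin layers were parted with thermolysin, the dermis was then digested with collagenase, and the lymph node was mashed. Sorted cells were positive for GFP, CD4, CD3 and CD45. Both skin libraries used the 10x Genomics 3′ v3 kit and the lymph node library the v2 kit, so tissue, dissociation and kit cannot be told apart in any comparison of skin with lymph node. Between epidermis and dermis, skin layer and collagenase digestion cannot be told apart. How many animals went into a library, and their sex, are not stated in the labels.

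The Zfp36 proteins (Zfp36 is also called tristetraprolin) bind AU-rich elements in 3′ untranslated regions through tandem zinc fingers and bring in the CCR4-NOT deadenylase, which removes the poly(A) tail. Zc3h12a encodes Regnase-1 and Zc3h12d encodes Regnase-4, RNases of the same family, and Rc3h1 encodes Roquin-1, which binds stem-loops in 3′ untranslated regions. All limit cytokine and activation transcripts in immune cells. Regnase-1 and Roquin-1 are cleaved by the protease Malt1 after T cell receptor signalling, and the Zfp36 proteins are held inactive when phosphorylated by the kinase Mapkapk2. The transcript level measured here is therefore not a measure of the proteins' activity.

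The transcripts of 4 of the 6 genes themselves carry the AU-rich nonamer TTATTTATT, the preferred site of the Zfp36 proteins, in an annotated 3′ untranslated region (GENCODE vM21, mm10). It was present in 1585 of 20725 genes with such a region, or 7.65%. Zc3h12a and Zc3h12d did not hold these letters. The sites are shown, with the nonamer in capitals and in the sense of the transcript, together with those of Fos and Nfkbia, which belong to the target list described further on. Zfp36 lies at chr7:28376784-28380253 on the minus strand, Zfp36l1 at chr12:80107754-80113013 (minus), Zfp36l2 at chr17:84183931-84187947 (minus) and Rc3h1 at chr1:160906418-160974978 (plus). Zc3h12a lies at chr4:125118423-125127840 (minus) and Zc3h12d at chr10:7832470-7870396 (plus).
Zfp36, chr7:28376950-28376979, minus strand: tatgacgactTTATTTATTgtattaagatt
Zfp36l1, chr12:80108166-80108195, minus strand: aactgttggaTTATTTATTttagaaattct
Zfp36l2, chr17:84184913-84184942, minus strand: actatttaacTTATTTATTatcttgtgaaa
Rc3h1, chr1:160970043-160970072, plus strand: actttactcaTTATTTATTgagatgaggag
Fos, chr12:85477103-85477132, plus strand: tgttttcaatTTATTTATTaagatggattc
Nfkbia, chr12:55489607-55489636, minus strand: ggaccacgttTTATTTATTgtgcttttgat
A match to these letters is a description and no evidence of binding.

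Cells with at least 500 UMIs (unique molecular identifiers, each counting 1 captured transcript) and at most 10% mitochondrial UMIs were kept. That left 297 of 360 epidermal cells with a median of 6671 UMIs, 875 of 1077 dermal cells with 4726, and 9400 of 9419 lymph node cells with 3022. Summed UMIs were 2205131, 4630059 and 32906839. Foxp3, the defining Treg gene, had a UMI in 7.17% of cells from lymph node, 47.0% from dermis and 39.7% from epidermis, and Cd3g in 95.8%, 91.8% and 89.2%. Levels are given as CPM, UMIs of a gene scaled to a common library total. Keratinocyte markers (12 genes) together reached 48.2 CPM in the lymph node library, 320 in the dermal and 137 in the epidermal one, with 4, 0 and 2 of them at 0. A transcript of the Y chromosome was seen in 35.0% of the cells from epidermis, in 8.11% from dermis and in none of 9400 from lymph node, which allows a share of up to 0.0319% of cells with such a UMI and sets no limit on the cells expressing these genes. A UMI of Xist was seen in 38.4% of cells from epidermis, 84.5% from dermis and 75.4% from lymph node. Both shares differ between the libraries, so animal sex cannot be told apart from tissue or skin layer. Some ratios are also given for cells with a UMI of Xist and none of the Y chromosome. These were 111 epidermal, 723 dermal and 7086 lymph node cells. Beyond that, the part of non-T-cell RNA and of animal sex in the results was not tested.

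The 2 skin libraries shared 43 cell barcodes, of which 41 were kept in both, and the dermal and lymph node libraries shared 1. In 39 of the 43 pairs, at least 90% of the UMI content of the smaller copy lay inside the larger one. The deeper copy was epidermal in 30 of these pairs and dermal in 9. Removing these barcodes took out 42 epidermal and 41 dermal cells, and values without them are given beside the epidermal results they move.

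Zfp36 was the member whose level differed most between skin and lymph node. Its level was 441 CPM in epidermis (95% Poisson interval 414 to 469, 972 UMIs), 836 CPM in dermis (810 to 862, 3869 UMIs) and 48.0 CPM in lymph node (45.6 to 50.4, 1578 UMIs). All such intervals cover counting error only and say nothing of variation between animals. With 1 library per tissue there is no replicate check and no test between tissues. The dermal level was 17.4-fold (16.4 to 18.5) and the epidermal level 9.19-fold (8.48 to 9.96) that of lymph node. Epidermis was 1.90-fold lower (1.77 to 2.04) than dermis. As a log2 ratio this was -0.92, and it was -0.66 among cells with a UMI of Xist and none of the Y chromosome. Without the shared barcodes the epidermal level was 523 CPM and the dermal level 852 CPM.

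Zfp36l1 and Zfp36l2, the paralogs known for their part in lymphocyte development and quiescence, had the same order of tissues, dermis over epidermis over lymph node. Zfp36l1 stood at 775 CPM in epidermis (738 to 812), 1127 in dermis (1096 to 1158) and 231 in lymph node (226 to 236). Zfp36l2 stood at 530 CPM (500 to 561), 747 (723 to 773) and 172 (168 to 177). For neither gene did the counting intervals of any pair of tissues overlap. Dermis exceeded lymph node 4.87-fold for Zfp36l1 and 4.34-fold for Zfp36l2, and epidermis exceeded it 3.35-fold and 3.07-fold. Epidermis was 1.45-fold and 1.41-fold below dermis. For Zfp36l1 that gap was not seen among cells with a UMI of Xist and none of the Y chromosome, at 1122 CPM in epidermis and 1136 in dermis. Gm26669, a long non-coding RNA annotated on the opposite strand inside Zfp36l1, was counted at 83.9, 116 and 2.13 CPM. The labels do not say whether counting used strand, so reads of these genes may not be separable.

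Zc3h12a, the gene of Regnase-1, had the second largest skin-to-lymph-node ratios after Zfp36. It was at 59.0 CPM in epidermis (49.3 to 70.0, 130 UMIs), 135 in dermis (125 to 146, 627 UMIs) and 14.3 in lymph node (13.0 to 15.6, 470 UMIs). The dermal level was 9.48-fold (8.40 to 10.7) and the epidermal level 4.13-fold (3.37 to 5.02) that of lymph node. Epidermis was 2.30-fold lower than dermis (1.90 to 2.80). That last ratio shrank to 1.33-fold among cells with a UMI of Xist and none of the Y chromosome, where epidermis stood at 107 CPM and dermis at 143.

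Zc3h12d, the gene of Regnase-4, had the smallest ratios of skin over lymph node among the 6 genes. It was at 62.6 CPM in epidermis (52.6 to 73.9), 53.6 in dermis (47.1 to 60.7) and 35.0 in lymph node (33.0 to 37.1). The skin levels were not separated beyond counting error, with epidermis at 1.17-fold the dermal level (0.942 to 1.44). Dermis was 1.53-fold (1.33 to 1.75) and epidermis 1.79-fold (1.49 to 2.13) above lymph node, both short of 2-fold. The epidermal values of Zc3h12d depended on the cells used: in cells thinned to 1500 UMIs it stood at 30.9 CPM in lymph node, 46.7 in dermis and 89.1 in epidermis, with a log2 ratio of 1.53 over lymph node and 0.93 over dermis. Epidermis over lymph node passed 2-fold in 3 of 15 alternatives.

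Rc3h1, the gene of Roquin-1, was at 52.2 CPM in epidermis (43.1 to 62.6), 62.4 in dermis (55.4 to 70.0) and 14.2 in lymph node (13.0 to 15.6). The skin levels again overlapped within counting error, at a ratio of 1.20-fold lower in epidermis (0.961 to 1.5). Dermis was 4.39-fold (3.78 to 5.09) and epidermis 3.67-fold (2.96 to 4.51) above lymph node.

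With the shared barcodes left out, the epidermal levels of the other 5 genes were 827 CPM for Zfp36l1, 626 for Zfp36l2, 68.0 for Zc3h12a, 66.2 for Zc3h12d and 49.98 for Rc3h1. The dermal levels of these 5 were then 1120, 758, 137, 53.1 and 62.7 CPM, so the order of the tissues was the same for each gene.

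**Figure D1:**
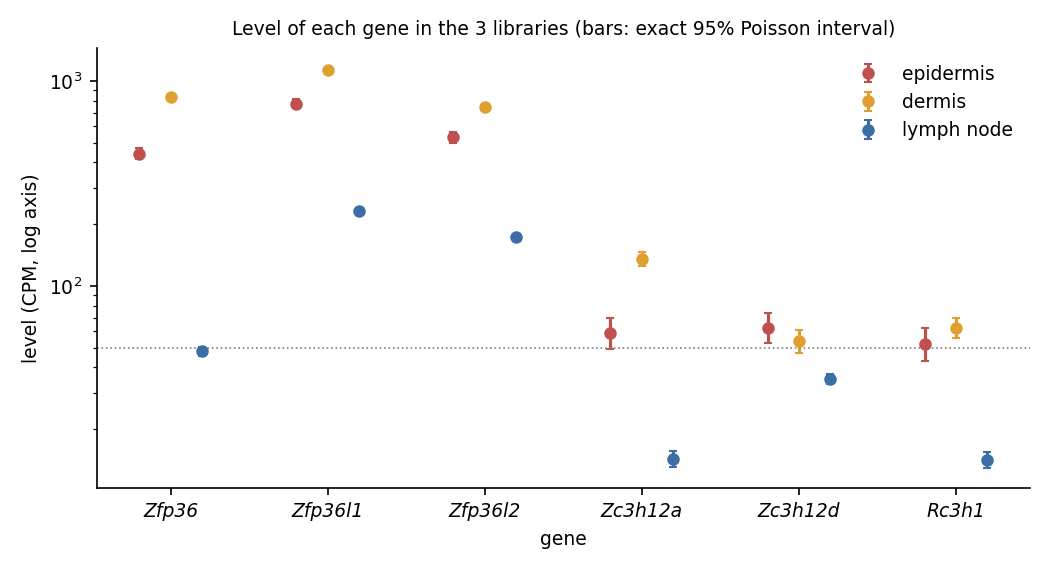
Level of each of the 6 genes in CPM on a log axis, with 1 point per library and bars for the exact 95% Poisson interval; the dotted line marks 50 CPM. Lymph node is the lowest library for every gene, and dermis is above epidermis for all but Zc3h12d, with overlapping intervals for Rc3h1.

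A gene counted as differing if the larger of its CPM values was 50 or more and at least 2-fold the smaller. By this rule 5 of the 6 genes were higher in dermis than in lymph node, all but Zc3h12d, where 26% of the 3203 genes at 50 CPM were higher. None of the 6 was lower in dermis, against 9.55% of those genes. The same 5 were higher when epidermis was set against lymph node, where 18.6% of 3067 genes were, and 0 of 6 were lower, against 3.42%. Between epidermis and dermis, 1 of the 6 was lower in epidermis (Zc3h12a), against 4.54% of 3064 genes, and 0 were higher, against 2.71%. The median log2 ratio of the 6 was 2.21 for dermis over lymph node and 1.81 for epidermis over lymph node, beside 0.15 and 0.14 for all genes at 50 CPM. TMM scaling, which aligns the bulk of genes between libraries, moved those 2 medians to -0.23 and -0.34 and, of the genes at least 2-fold apart, the share that was higher in skin from 73.1% to 45.9% for dermis and from 84.5% to 44.2% for epidermis. It lowers the ratio of every gene in a comparison by the same step, and all 6 genes stayed above lymph node in both skin layers. Of all genes tested, 65 of the 3203 genes had a larger dermis-to-lymph-node ratio than Zfp36, and 126 a larger one than Zc3h12a.

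**Figure D2:**
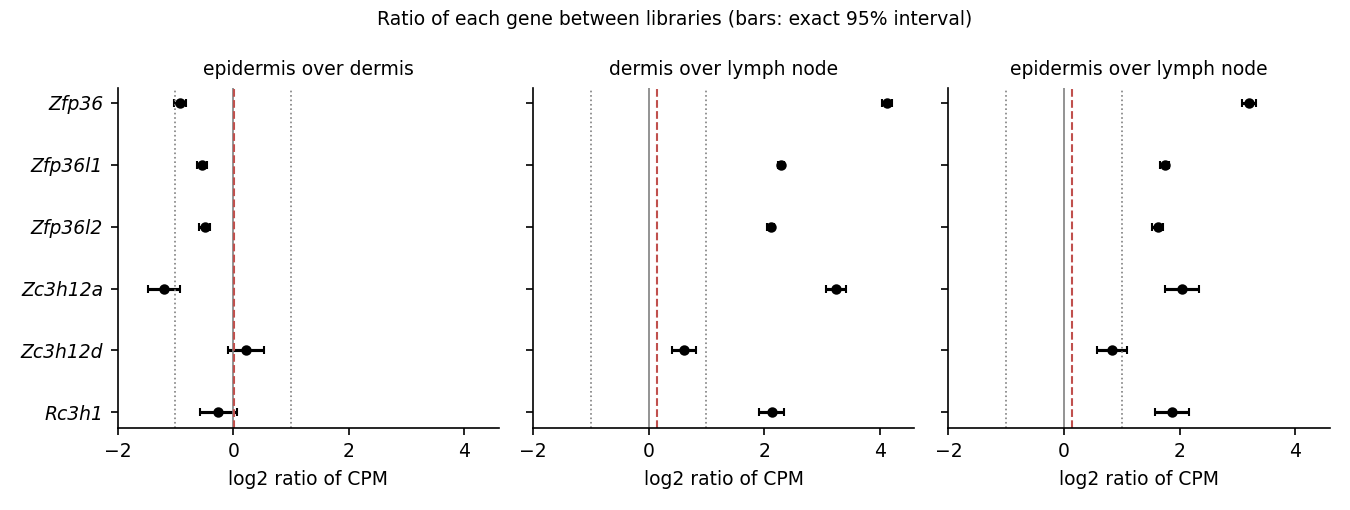
Log2 ratio of CPM between each pair of libraries for the 6 genes, with exact 95% intervals, dotted lines at 2-fold and a dashed line at the median of all genes at 50 CPM. Zfp36 lies farthest to the right in both comparisons with lymph node, and the point for Zc3h12d stays inside the 2-fold lines in all 3 panels.

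The share of cells with at least 1 UMI was compared after thinning every cell to 1500 UMIs, which left out 35 epidermal, 47 dermal and 92 lymph node cells. Zfp36 was seen in 43.1% of thinned cells from epidermis, 56.6% from dermis and 6.61% from lymph node. For Zfp36l1 the shares were 56.1%, 67.1% and 26.6%, and for Zfp36l2 48.5%, 55.8% and 23.7%. Zc3h12a was seen in 9.92%, 19.0% and 2.27% of cells. Zc3h12d was seen in 11.5%, 6.28% and 4.47%, and Rc3h1 in 9.54%, 8.33% and 2.12%. The order of tissues followed the levels, save for Rc3h1 in the skin layers, where no order is read. Without the shared barcodes the epidermal share was 48.5% for Zfp36 and 7.79% for both Zc3h12d and Rc3h1. Without thinning, Zfp36 was seen in 68.7%, 78.4% and 13.8% of cells. No cell type known to lack these genes was present to give a background share. At this depth 14.9% of cells from epidermis, 7.25% from dermis and 48.5% from lymph node held none of the 6 genes, and at least 3 were seen together in 25.6%, 39.5% and 1.60%.

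**Figure D3:**
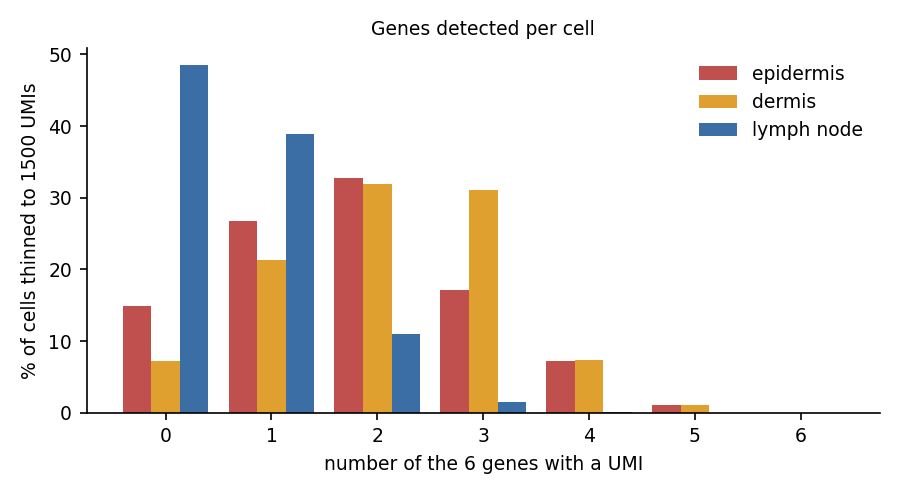
Share of cells, thinned to 1500 UMIs, in which a given number of the 6 genes had a UMI, for each library. Lymph node cells peak at 0 genes, epidermal and dermal cells at 2, and no cell held all 6.

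Within each library, cells were ordered by their share of UMIs on 27 immediate early and dissociation genes (Fos, Jun, Egr1, Dusp1 and similar, the 6 genes left out) and split into 4 equal parts after thinning. These transcripts appear within minutes of stimulation and also during tissue digestion. In lymph node the highest genes of the list were Klf2 at 766 CPM and Jund at 460, and Klf2 is also on the resting T cell list used below. Fos, Jun, Egr1 and Dusp1 stood at 6.29, 24.6, 26.0 and 38.4 CPM there, against 1880, 177, 47.9 and 2258 in dermis. The lymph node order therefore rests largely on other genes of the list, and its ratios are not like for like with those of skin. Zfp36 was itself first known as an immediate early gene, and it was highest in the highest part of every library. Its level rose from part to part in epidermis and dermis, but not steadily in lymph node. Across the 4 parts its epidermal level was 131, 354, 697 and 1087 CPM, its dermal level 454, 692, 937 and 1623 CPM, and its lymph node level 33.8, 49.0, 40.7 and 70.2 CPM. The highest part exceeded the lowest 8.28-fold (4.64 to 16.1) in epidermis, 3.57-fold (2.96 to 4.34) in dermis and 2.08-fold (1.66 to 2.61) in lymph node.

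The paralogs followed the immediate early order less steeply. Zfp36l1 was 3.19-fold (2.25 to 4.6), 2.20-fold (1.86 to 2.61) and 1.44-fold (1.31 to 1.59) higher in the highest part than in the lowest. Zfp36l2 was 2.32-fold (1.57 to 3.47) higher in epidermis and 1.65-fold (1.37 to 2.0) in dermis, while in lymph node its ratio of 1.06-fold (0.952 to 1.18) was within counting error. In all 3 libraries the ratio was largest for Zfp36 and smallest for Zfp36l2 among the paralogs. Zc3h12a was higher in the highest part by 2.16-fold in dermis (1.32 to 3.62) and by 2.16-fold in lymph node (1.45 to 3.28). In epidermis only 2 UMIs of Zc3h12a lay in the lowest part and 18 in the highest, a ratio of 9.14-fold (2.19 to 81.2). For Zc3h12d and Rc3h1 the interval of the ratio included 1 in every library.

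The lowest part of dermal cells had 454 CPM of Zfp36 and the highest part of lymph node cells 70.2 CPM. Cells of that dermal part had an immediate early share of 0 to 1.47%. The 2 parts were not matched for this share, so the pair does not compare cells of low and high share. Immediate early genes as a list were higher in skin, at 19 of 22 genes in dermis over lymph node and 15 of 19 in epidermis over lymph node, against 26% and 18.6% of all genes, so parts with the same rank in different libraries do not hold cells of equal immediate early share. In epidermis against dermis 10 of 22 were lower and 0 higher, against 4.54% and 2.71% of all genes, with Fos 3.54-fold lower. Of 11 heat shock genes 4 were lower and 0 higher, with Hspa1b 10.6-fold lower. Whether the lower Zfp36 and Zc3h12a levels of epidermis go with these lists was not tested. Keratinocyte markers rose between the lowest and highest immediate early parts, from 132 to 316 CPM in dermis and from 141 to 256 CPM in epidermis. T cell and Treg markers rose from 7201 to 8016 CPM in dermis and from 5566 to 8092 CPM in epidermis. Median UMIs before thinning fell from 5001 to 4351 in dermis and from 8555 to 5699 in epidermis. The part of these differences in that order was not tested. Of 875 dermal cells, 821 had no UMI of the keratin, collagen, Sparc and Acta2 genes checked, and their Zfp36 level was 848 CPM. With so few cells removed, this level could hardly differ from that of all dermal cells. The order was not recomputed in the cells that remained. Without the shared barcodes the Zfp36 ratios between the highest and lowest parts were 7.41-fold in epidermis and 3.37-fold in dermis. Those of Zc3h12a were then 15.3-fold in epidermis and 1.49-fold in dermis, the latter within counting error (0.940 to 2.40).

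**Figure D4:**
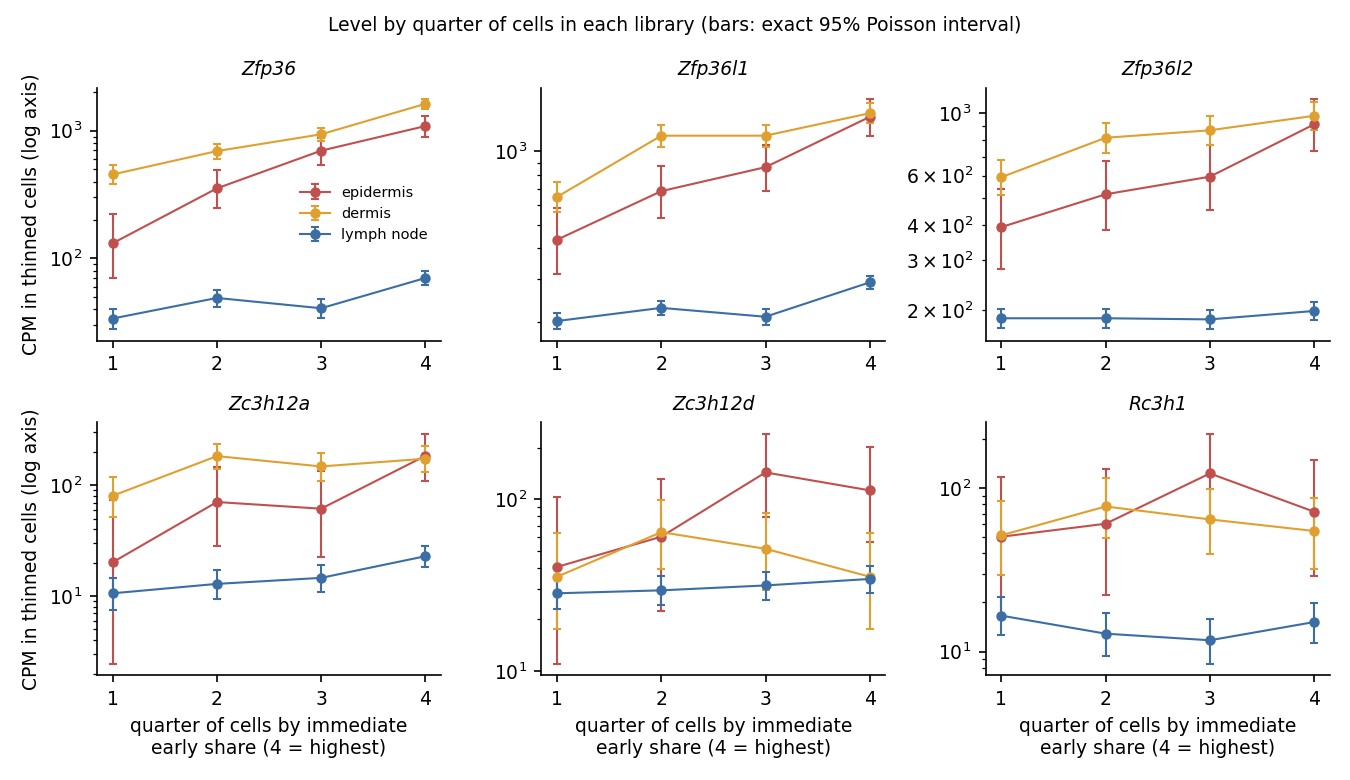
Level in CPM (log axis) of each gene in 4 equal parts of the thinned cells of a library, ordered by immediate early share, with exact 95% Poisson intervals. Zfp36 has its highest level in part 4 in all 3 libraries, and lymph node Zfp36l2 stays between 185 and 198 CPM.

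Because Zfp36 followed the immediate early genes across cells, its promoter is shown as the stretch before the RefSeq transcription start, chr7:28379229-28379478 on the minus strand of GRCm38.p6. The capitals mark an EGR motif (GCGNGGGCG, found in 4.70% of 32851 promoters of this length on either strand) and, closer to the start, a CArG box, the core of the serum response element (1.47% of promoters).
Zfp36 promoter: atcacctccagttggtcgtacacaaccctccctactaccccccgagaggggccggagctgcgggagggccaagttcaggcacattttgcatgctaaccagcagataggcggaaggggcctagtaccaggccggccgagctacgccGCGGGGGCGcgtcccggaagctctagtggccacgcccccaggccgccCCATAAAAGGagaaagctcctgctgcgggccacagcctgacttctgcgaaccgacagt
Zfp36l1 and Rc3h1 each had 1 AP-1 motif (TGANTCA, 6.75% of promoters) in the same window, and Zc3h12a and Zc3h12d had none of the motifs searched. These are matches of letters and do not show binding of a factor.

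Ordering the cells by 21 effector Treg genes (such as Areg, Klrg1 and Gata3) gave a different picture for the paralogs. In lymph node Zfp36l1 went from 152 to 175, 232 and 372 CPM across the 4 parts, a ratio of 2.45-fold (2.22 to 2.72) between the highest and the lowest. Zfp36l2 in the same cells went from 196 to 183 CPM, a ratio of 0.931 (0.835 to 1.04). Ordered instead by resting T cell genes, lymph node Zfp36l1 was 2.11-fold lower (1.91 to 2.34) in the most resting part, while the ratio for Zfp36l2, 1.03-fold lower (0.922 to 1.15), was within counting error. In lymph node Zfp36l1 went with the effector genes, and a difference of Zfp36l2 was not detectable.

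In epidermis Zfp36l1 was also higher in the highest effector part than in the lowest, 2.35-fold (1.68 to 3.33). Its 4 parts did not rise steadily, at 515, 939, 697 and 1210 CPM. Epidermal Zfp36 was 3.05-fold (1.76 to 5.52) higher in the highest part, with its peak of 859 CPM in part 2. Epidermal Zc3h12a was 6.09-fold (1.36 to 56.0) higher, from only 2 UMIs in the lowest part. For epidermal Zc3h12d and Rc3h1 the interval included 1. Keratinocyte markers stood at 20.2 and 215 CPM in the lowest and highest parts, and T cell and Treg markers at 4343 and 9118 CPM. Their share in this was not tested. Dermal Zfp36l1 stood at 1108 and 1037 CPM in the lowest and highest effector parts, a ratio within counting error, while dermal Zfp36l2 went from 1018 to 560 CPM, 1.82-fold lower (1.5 to 2.20). Markers of other cell types were also lower in the highest dermal effector part, those of keratinocytes at 206 against 345 CPM, endothelial and mural markers at 19.3 against 67.6 and fibroblast markers at 0 against 16.1, which was likewise not tested. Epidermal Zfp36l2 was at a ratio of 0.973 (0.635 to 1.49) between these parts, and at 1.5-fold (0.976 to 2.33) without the shared barcodes, both within counting error. Both Regnase genes went with the effector genes in lymph node, Zc3h12d at 2.01-fold (1.53 to 2.66) and Zc3h12a at 2.0-fold (1.35 to 3.02). Lymph node Rc3h1, at 1.58-fold (1.06 to 2.37), and Zfp36, at 1.40-fold (1.13 to 1.73), were also higher in the highest effector part. Those cells were sequenced to similar depth before thinning, with medians of 3017 and 3253 UMIs in the lowest and highest effector parts.

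Lymph node cells were also clustered, with the 6 genes left out of the clustering. One cluster of 176 cells was led by Egr2, Nr4a1, Egr1 and Fos, genes induced by T cell receptor signalling. It held Zfp36 at 179 CPM (147 to 216), while the other 12 clusters lay between 24.4 and 68.7 CPM. Zfp36l1 was at 455 CPM (404 to 512) in that cluster. It was at 423 CPM in a cluster of 684 cells led by Marcksl1 and Nkg7, at 390 CPM in a cluster of 946 cells led by Gpm6b and Il18r1, and at 334 CPM in a cluster of 958 cells led by Klrg1 and Gzmb. The lowest Zfp36l1 level was 124 CPM (114 to 134), in a cluster of 1615 cells led by Dapl1 and Ly6c1. Zfp36l2 spanned a narrower range, from 115 to 256 CPM, and Zc3h12d was highest, at 65.2 CPM, in the cluster led by Marcksl1.

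**Figure D5:**
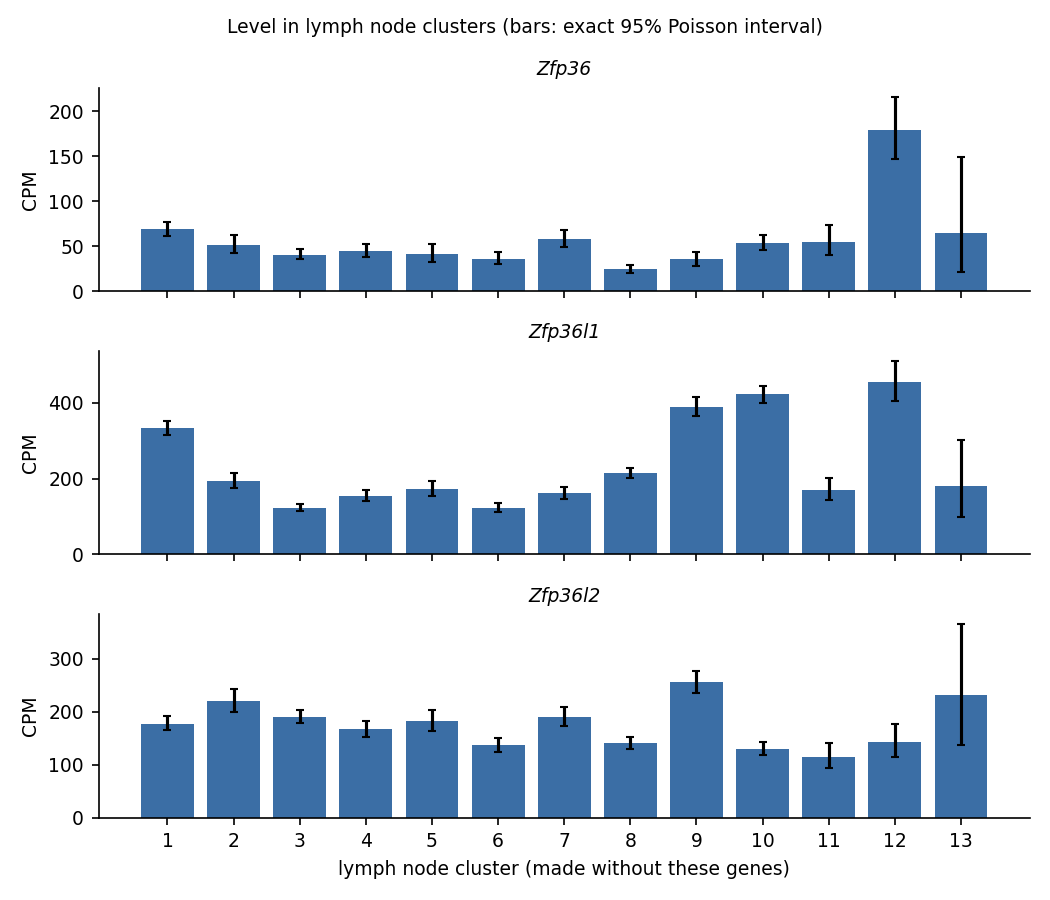
CPM of Zfp36, Zfp36l1 and Zfp36l2 in the 13 lymph node clusters, with exact 95% Poisson intervals. Cluster 12, led by Egr2, stands apart for Zfp36, while Zfp36l1 is high in clusters 1, 9, 10 and 12.

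The skin clusters differed in the same gene. Among 9 dermal clusters Zfp36 ranged from 410 CPM, in 97 cells led by the mural genes Sparcl1 and Acta2, to 1558 CPM, in 93 cells led by Mgarp with Klf4 and Fos. A dermal cluster of 129 cells led by Krt14 and Krt5 held 1329 CPM. Leading genes were ranked by CPM pooled over a cluster, which a few cells can set. Of 875 dermal cells, 821 had no UMI of the keratin, collagen, Sparc and Acta2 genes checked. Such leading genes therefore do not identify the cells of a cluster. Among 7 epidermal clusters the lowest level, 192 CPM, was in 61 cells led by histone and mitosis genes, of which 25 carried a shared barcode, and it was 220 CPM without them. The highest was 754 CPM in 23 cells.

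Cells with a Foxp3 UMI were set beside the rest, since few cells had one. After thinning, Zfp36 was 1.48-fold (1.06 to 2.05) that of other cells in epidermis and 1.51-fold (1.05 to 2.13) in lymph node, but 0.799-fold (0.681 to 0.935) in dermis. Zfp36l2 in dermis was 1.25-fold (1.08 to 1.45). Among cells with a Foxp3 UMI alone, unthinned Zfp36 stood at 741 CPM in dermis, 432 in epidermis and 53.1 in lymph node, so the order of tissues was that of all cells.

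Zfp36l1 and Zfp36l2 alone reached 50 CPM in all 3 libraries, and their patterns across cells were compared with those of 1774 genes at that level. The highest Pearson r of log counts in thinned cells, averaged over the 3 libraries, was 0.21 for Zfp36l1 with Ikzf2, followed by Junb at 0.21 and Btg1 at 0.19. For Zfp36l2 it was 0.18 with Malat1, 0.13 with Btg1 and 0.11 with Ablim1. The paralogs had an r of 0.06 with each other. In epidermis alone r was 0.32 for Zfp36l1 with Junb and 0.29 for Zfp36l2 with Malat1, and in lymph node 0.08 for each pair. Cells of 1 library share its depth and handling. Low values in sparse counts neither show nor exclude a relation.

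Of the other genes of these families, N4bp1, an RNase related to the Regnases, was 9.74-fold higher in dermis and 9.03-fold higher in epidermis than in lymph node. Rc3h2, the gene of Roquin-2, was 2.70-fold higher in dermis at 62.0 against 23.0 CPM. Zc3h12b, Zc3h12c and Khnyn were below 50 CPM throughout, and Zfp36l3 had no UMI in any library.

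Genes of deadenylation, the step that Zfp36 proteins bring about, were higher in part. Of 11 CCR4-NOT and deadenylation genes at 50 CPM, 7 were at least 2-fold higher in dermis than in lymph node and none lower, against 26% higher and 9.55% lower of all genes tested, among them Tob2 at 7.27-fold, Btg2 at 3.06-fold and Cnot6l at 2.82-fold. Tob and Btg proteins link deadenylase to RNA-binding proteins and are not part of the enzyme, and Btg2 is also on the immediate early list. In epidermis 4 of 10 were higher, against 18.6% of all genes. These were Tob2 at 3.29-fold, Btg2 at 2.35-fold, Cnot1 at 2.22-fold and Pan3 at 2.06-fold. The list's median log2 ratio was 0.67 and 0.29, beside 0.14 and 0.20 for all genes at 10 CPM. The epidermal median is below 0 under TMM scaling, whose step exceeds it.

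Genes of the later steps of decay were mixed. Of 5 decapping genes 2 were higher in each comparison, too few to set against the 26% and 18.6% of all genes, with the helicase gene Ddx6 at 4.26-fold and 3.36-fold. Of 6 RNA exosome genes none was higher in dermis and 3 were lower, against 9.55% of all genes, Exosc4 by 2.63-fold, Exosc7 by 2.42-fold and Exosc5 by 2.30-fold. In epidermis none of the exosome genes reached 2-fold either way.

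The products of another list control the decay proteins themselves. Of its 10 genes at 50 CPM, 4 exceeded their lymph node level at least 2-fold in dermis and 4 in epidermis, with 0 lower, against 26% and 18.6% of all genes higher and 9.55% and 3.42% lower. Malt1, the protease of Regnase-1 and Roquin-1, was 17.4-fold higher in dermis and 8.65-fold higher in epidermis, and it was 2.01-fold lower in epidermis than in dermis. Mapkapk2, the kinase of the Zfp36 proteins, was 3.35-fold and 3.01-fold higher. Of 14 other AU-rich element binding proteins 4 were higher in each skin layer, near the 26% of all genes in dermis and above the 18.6% in epidermis, with Ybx3 at 6.61-fold in dermis and 8.67-fold in epidermis.

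Transcripts reported as targets of these proteins were mostly higher where the decay genes were higher. Of 13 reported Zfp36 family targets at 50 CPM, a list that includes Zfp36, 11 were higher and 2 lower in dermis than in lymph node, and 11 were higher and 1 lower in epidermis. Of all genes, 26% were higher and 9.55% lower in dermis, and 18.6% higher and 3.42% lower in epidermis. Fos stood at 1880, 531 and 6.29 CPM in dermis, epidermis and lymph node, Dusp1 at 2258, 761 and 38.4, and Il10 at 106, 63.0 and 2.70. Bcl2 went against these, at 7.56 CPM in dermis, 108 in epidermis and 471 in lymph node. Myc did so too, at 16.0, 27.7 and 52.3 CPM, though short of 2-fold in epidermis. Il2, on both target lists but under 50 CPM in every library, stood at 1.08, 4.99 and 44.4 CPM. Of 16 reported Regnase and Roquin targets, a list that includes Zc3h12a, 13 were higher and 1 (Myc) lower in dermis, and 13 were higher and none lower in epidermis. Il1rl1, the receptor of interleukin-33, was 19.7-fold and 10.5-fold higher, Ctla4 13.5-fold and 6.75-fold, and Nfkbiz 10.4-fold and 5.74-fold. Fos and Dusp1 are also immediate early genes, and several targets are effector Treg genes, so these lists are not separate evidence.

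Genes holding the nonamer were described in the same way. In dermis over lymph node 38.5% of 231 nonamer genes at 50 CPM were at least 2-fold higher, against 24.3% of 2905 genes without it. In epidermis over lymph node it was 27.2% of 202 against 17.3% of 2800. Nonamer genes have longer 3′ untranslated regions, with a median of 2346 against 956 bases. With genes parted by that length, the dermal shares with and without the nonamer were 44.4% and 12.6% in the shortest group, 42.6% and 23.0% in the middle group, and 35.9% and 39.2% in the longest group. The nonamer genes numbered 18, 68 and 145 in these groups, so the first share rests on few genes. In the group of longest regions the nonamer genes did not exceed the others.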

How the data were processed

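The deposited values were raw UMI counts without normalization, 1 matrix of genes by called cells for each tissue. The submitters' processing notes name Cell Ranger and mm10, and the file headers of the skin matrices give version 4.0.0. For lymph node the version, and for all libraries the use of strand in counting, were not found in the labels or headers.

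UMIs were summed over kept cells and scaled to CPM. Ratios carry exact 95% intervals from the binomial split of 2 counts, levels exact Poisson and shares Clopper-Pearson intervals. No test between tissues was run, since each tissue had 1 library. Cells were thinned to 1500 UMIs without replacement for shares and for the ordering of cells. Clustering used scanpy 1.11.5 (1500 variable genes, 20 components, 15 neighbours, Leiden resolution 1). TMM factors came from edgeR 4.0.16. No doublet caller was run; an alternative drops cells above the 95th percentile of UMIs. The scripts were tested on simulated data.

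All 6 genes were named for levels, ratios, shares and the immediate early order. In the other orders, the clusters and the Foxp3 comparison, only some of the values are printed. Of each list, up to 4 genes with the largest ratios were eligible, and fewer are printed. Targets beside their sites or in the last comparisons (Fos, Dusp1, Bcl2, Il10, Nfkbia, Myc, Il2) were chosen partly after their values were seen. The same holds for the immediate early genes whose levels are printed to describe that list. The 6 genes and all lists were chosen with earlier results of these data known. Protein sequences were not used here, and Zfp36l2 was not among the promoters used.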

Additional observations from a re-analysis of the deposited data

How the results depend on the processing

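Each ratio was recomputed under 15 alternatives with other cell filters, depths and scalings. Of these, 3 were added after seeing the data (shared barcodes removed, shared barcodes kept in the deeper library, and cells without keratin, collagen or mural UMIs). Other thresholds, a minimum of 10 CPM and a 1.5-fold ratio, were applied only to the count of genes that differed. The 5 genes higher in dermis than in lymph node were 2-fold higher in all 15, with the smallest log2 ratios under TMM scaling (3.75 for Zfp36, 2.87 for Zc3h12a, 1.91 for Zfp36l1, 1.76 for Rc3h1 and 1.74 for Zfp36l2). No ratio that met the 2-fold rule changed sign. In epidermis over lymph node the count of 5 became 3 without the cells highest in immediate early UMIs, where Zc3h12a (38.1 CPM) and Rc3h1 (46.8 CPM) lay under 50 CPM in epidermis. Rc3h1 met the rule in 9 of 15 alternatives, and Zc3h12d, which did not meet it in the main values, in 3 (log2 1.53 in thinned cells, 1.47 in cells with Xist and no Y transcript, and 1.05 in cells with a Foxp3 UMI). Between epidermis and dermis the count of 1 became 2 without the cells highest in immediate early UMIs, 2 under TMM, 2 under median-of-ratios scaling and 2 at a 1.5-fold threshold. It became 0 in thinned cells, and 0 among cells that had a Xist UMI but none of the Y chromosome. The epidermal Zc3h12a deficit, a log2 ratio of -1.20, was -0.80 and -0.41 in those cells. TMM moved the median gene from 0.15 to -0.23 in dermis over lymph node, where 45.9% of the genes at least 2-fold apart were then higher in dermis against 73.1%, and from 0.14 to -0.34 in epidermis over lymph node. No paired analysis was possible because each tissue had 1 library, and for the same reason no replicate could be left out. Depth limits Zc3h12a, Zc3h12d and Rc3h1 in epidermis, where each had between 115 and 138 UMIs.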
